A study of Mus musculus with 8 samples.

Results

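The question addressed here is whether the genotype labelled mCre changed gene expression by the same factor in 2 subsets of mouse CD8+ T cells, or by a different factor in each. All 8 libraries of the series, 8 of 8, entered the comparison. By the genotype and subset in their titles they form 4 groups of 2: WT-TN and mCre-TN, WT-MP and mCre-MP. The cells were CD8+ T cells from spleen, enriched on magnetic beads and sorted by flow cytometry on CD8, CD4, CD44 and CD122. The series title names miR-29 beside Cre and naive T cell subsets. The allele behind the label mCre, the promoter that drives it, and the strain, sex and number of the animals are not stated in the labels. The labels mention spleens from adults or neonates without assigning an age to a library. The value reported for each gene is the interaction, which is the log2 fold change of mCre against WT in MP cells minus the same log2 fold change in TN cells. An interaction of 0 means an equal fold change in both subsets, a positive one a change further upward in MP cells than in TN cells, and a negative one the reverse.

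Not all CD8+ T cells that have never met a foreign antigen are alike. Some take on a memory phenotype in response to self peptides and cytokines such as IL-15, carry much CD44 and CD122 (the IL-2 and IL-15 receptor chain encoded by Il2rb), and respond faster and more like innate cells than the remaining naive cells do. The miR-29 family consists of small RNAs that pair through a short seed with sites in the 3′ untranslated regions (3′ UTRs) of messenger RNAs and lower their stability and translation. In T cells, miR-29 is known for restraining T-bet, Eomes and interferon gamma, and elsewhere for restraining collagens and DNA methyltransferases.

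The mature miR-29 sequences are shown because the series title names this microRNA and because a message that pairs with it would carry the complement of the seed. They come from RefSeq (GRCm38.p6), and capitals mark the seed, bases 2 to 8.
mmu-miR-29a-3p: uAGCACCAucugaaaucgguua
mmu-miR-29b-3p: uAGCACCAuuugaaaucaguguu
mmu-miR-29c-3p: uAGCACCAuuugaaaucgguua
The 3 share one seed and so one target heptamer, TGGTGCT. Among the 16 genes called below, 1 (6.25%) had the heptamer in its longest annotated 3′ UTR, against 1952 of the 11654 tested genes (16.7%) with a 3′ UTR of at least 30 bases. The median 3′ UTR length was 1555 bases in the called genes and 1333 in all. The one gene was Edaradd, with the heptamer at positions 5436 to 5442 of a 3′ UTR of 5551 bases, shown with the heptamer in capitals.
Edaradd site: gccatccgtacacctTGGTGCTa
A match is a stretch of letters in an annotated transcript, and no binding was measured.

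Of 12313 genes tested, 16 (0.13%) had an interaction at an adjusted p under 0.05 in edgeR's quasi-likelihood test. In 6 of them (0.0487%) the genotype difference was further upward in MP cells: H2-Q6 and H2-Q7 (nonclassical MHC class I molecules), Traf1, Hopx, Cd86 and Gpr55. In the other 10 (0.0812%) it was further upward in TN cells: Ikzf2, S100a6, Anxa2, Il12rb2, Itm2a, Edaradd, Atf6, Hectd2, Clec2i and Fam135b. The absolute interactions ran from 0.48 to 2.37 on the log2 scale, with a median of 1.05, and the median interaction of all tested genes was 0.006. Without multiple-testing adjustment, 373 genes had p under 0.05 with a positive interaction (3.03%) and 356 with a negative one (2.89%). The number of negative calls depended on single libraries: leaving out WT-TN replicate 2 gave 3, WT-MP replicate 1 gave 4, and mCre-MP replicate 2 or WT-MP replicate 2 gave 6 each. The number of positive calls was 19 without mCre-MP replicate 1.

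Single genotype differences were called far more often than interactions. mCre differed from WT at 427 genes in TN cells (3.47%; 1.55% higher and 1.92% lower) and at 498 in MP cells (4.04%; 2.08% higher and 1.97% lower), in comparisons that share no library. Both called 182 genes, 42.6% of the TN calls and 36.5% of the MP calls, and 178 of these had the same sign. The 4 with opposite signs were Ikzf2, Cd86, S100a6 and Il12rb2, and each had a called interaction. Of the 245 genes called in TN cells alone, 217 had an MP estimate of the same sign and 7 had a called interaction. Of the 316 called in MP cells alone, 269 had a TN estimate of the same sign and 4 had a called interaction, so a call in one subset alone was seldom a called difference between subsets. The interaction is also the less precise quantity, with a median standard error over genes of 0.131 against 0.0934 and 0.0908 for the genotype difference within TN and MP cells.

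**Figure D1:**
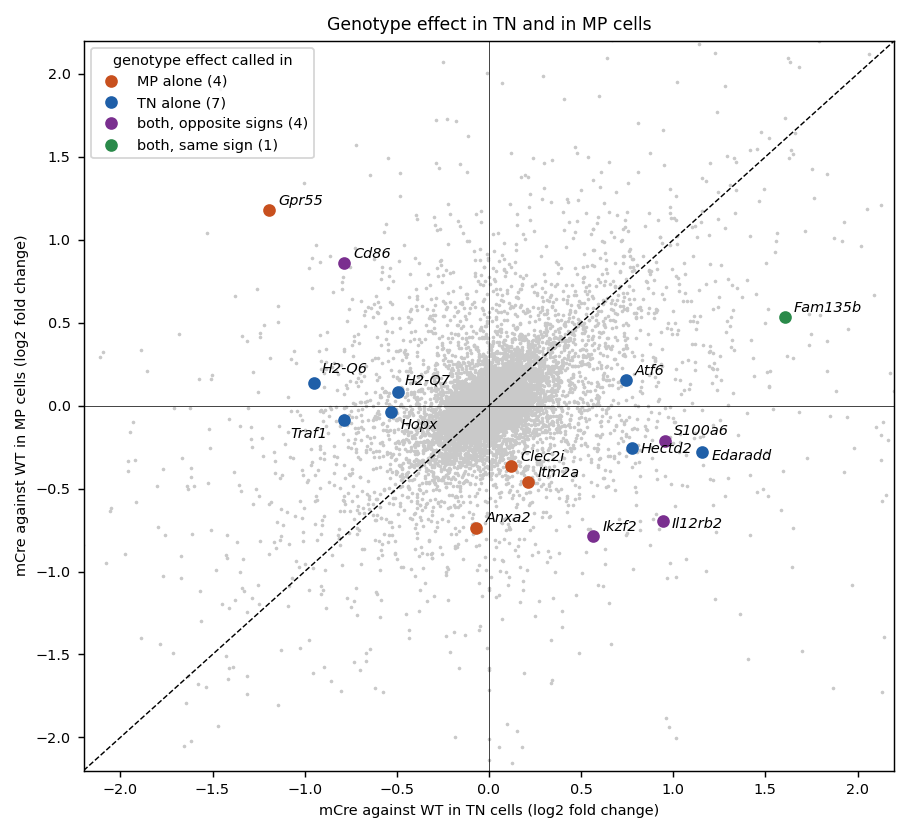
Log2 fold change of mCre against WT in TN cells (x axis) and in MP cells (y axis) for the tested genes, with the 16 called interactions named and the diagonal marking an interaction of 0. 117 genes with a value beyond 2.2 on either axis are not drawn; Ikzf2, S100a6 and Il12rb2 lie right of 0 and below it, and Cd86 left of 0 and above it.

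For comparison, the largest genotype difference in the T cell receptor signalling list was of similar size in the 2 subsets. Ptk2b, which encodes the focal adhesion family kinase Pyk2, was at 899 and 792 counts scaled to library size (CPM) in WT-TN and 318 and 317 in mCre-TN. In MP cells it was at 756 and 773 in WT and 332 and 324 in mCre. It fell by 1.41 on the log2 scale in TN cells and by 1.22 in MP cells, and its interaction was 0.19 (SE 0.078, adjusted p = 0.748). Ptk2b was chosen after its values were seen.

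**Figure D2:**
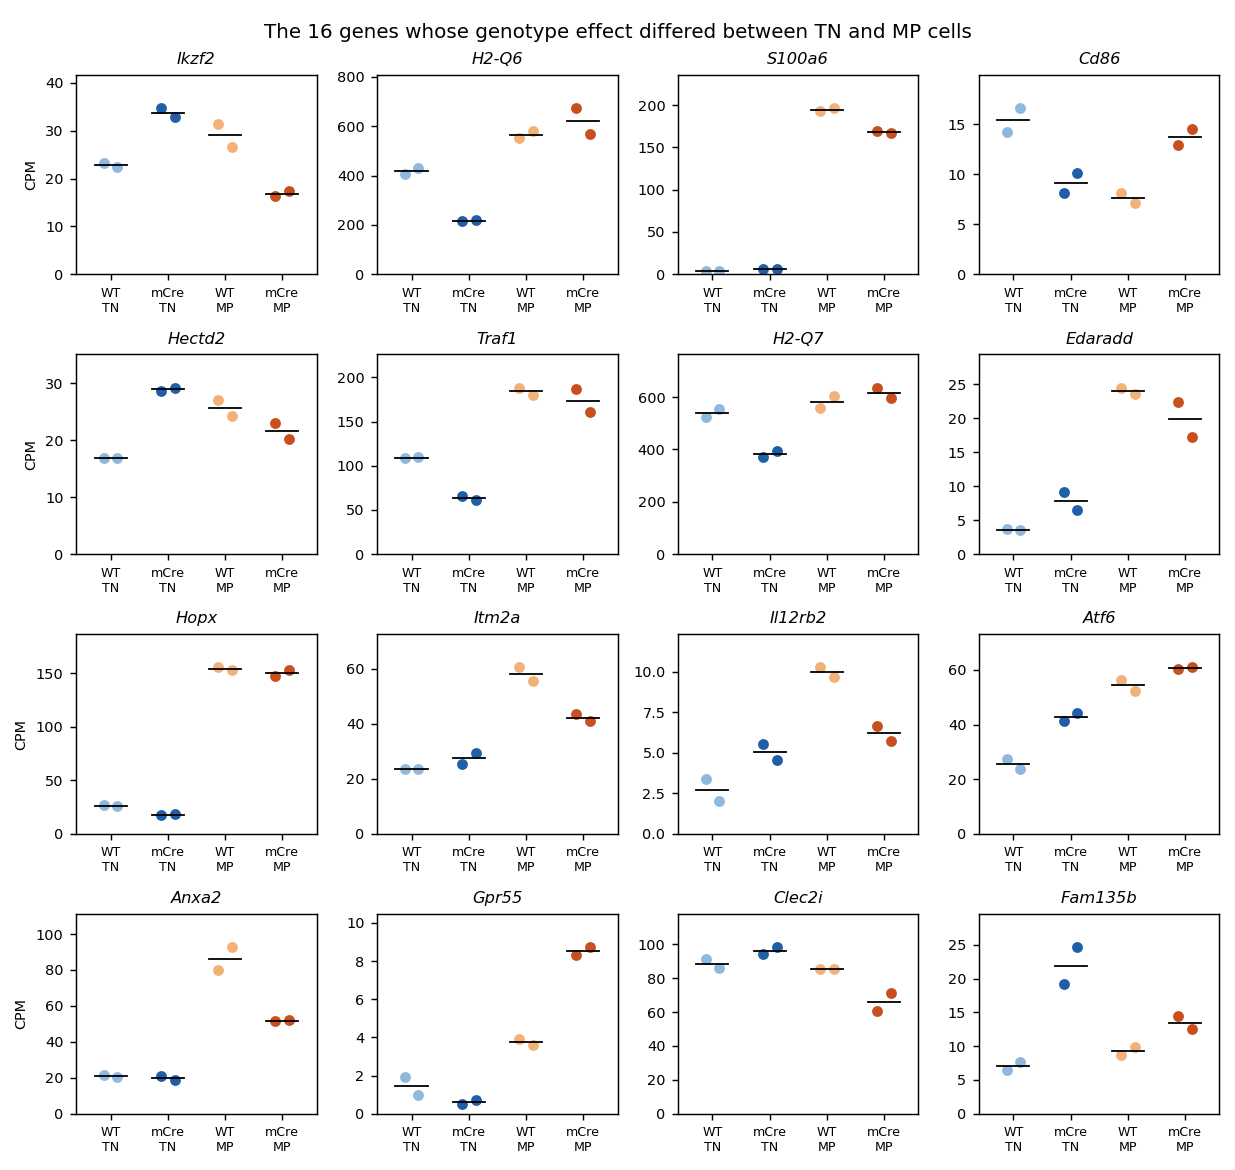
CPM (y axis, linear, from 0) of each of the 16 genes in each of the 8 libraries, by group (x axis), with a line at the mean of the 2 libraries. The mCre and WT libraries overlap in TN cells for Anxa2, and in MP cells for H2-Q6, H2-Q7 and Traf1. The genes were called on these same libraries, and the share of all tested genes without overlap was not computed. Overlap, here and in the text, therefore describes the libraries and lends the calls no support.

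Ikzf2 encodes Helios, an Ikaros family zinc-finger transcription factor known from regulatory T cells and from T cells with innate features. It lies at chr1:69531214-69687245, minus strand (GRCm38, the build of all coordinates here), and like all 16 genes it is annotated as protein coding. Its TN libraries were at 23.4 and 22.4 CPM in WT against 34.8 and 32.8 in mCre, and its MP libraries at 31.5 and 26.7 in WT against 16.3 and 17.4 in mCre. The libraries were thus higher in mCre than in WT among TN cells and lower among MP cells, with no overlap in either subset. The fold changes were 1.48-fold up in TN cells (log2 0.57, adjusted p = 0.00153) and 1.73-fold down in MP cells (log2 -0.79, adjusted p = 6.86e-05). The interaction was -1.35 (SE 0.134, adjusted p = 3.74e-05), the smallest adjusted p of all genes, shared with H2-Q6. The subset difference turned over with it: MP against TN was 0.35 (adjusted p = 0.00873) in WT and -1.01 (adjusted p = 7.95e-08) in mCre.

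Because Helios marks regulatory T cells, the counts of CD4 and regulatory T cell genes are given beside it. Summed over both libraries of a group, Cd4 had 3 counts in WT-TN and 6 in mCre-TN, against 7 in WT-MP and 10 in mCre-MP. Foxp3, the defining factor of regulatory T cells, had 64 and 79 counts in the TN groups (WT, mCre) and 31 and 46 in the MP groups. These counts are not scaled to library size. In the scaled fit, mCre against WT for Foxp3 was -0.32 (adjusted p = 0.741) in TN cells and 0.65 (adjusted p = 0.512) in MP cells. The interaction of Foxp3 was 0.96 (SE 0.59, adjusted p = 0.918), opposite in sign to that of Ikzf2. The 10 tested genes of the CD4 and regulatory T cell list had 1 called interaction, Ikzf2 itself (0.13% of all genes were called). At unadjusted p under 0.05, 3 were negative, Ikzf2 included, and 0 positive, where 2.89% and 3.03% of all genes were. The others, with the sign of Ikzf2, were Zbtb7b (-0.89, SE 0.284, adjusted p = 0.554) and Izumo1r (-0.44, SE 0.183, adjusted p = 0.775). The list's median interaction was 0.13, with 6 of 10 positive against 51.5% of all tested genes. The summed level of the list was 439 to 446 CPM in WT-TN, 410.0 to 435 in mCre-TN, 263 to 272 in WT-MP and 246 to 258 in mCre-MP. The part of these genes in the result was not tested. In bulk RNA a change in the share of cells that express a gene and a change in RNA per cell cannot be told apart, here and for every gene that follows. The relatives Ikzf1, Ikzf3, Ikzf4 and Ikzf5, looked up after the values were seen, had interactions of 0.03, 0.07, 0.21 and -0.07.

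Cd86 encodes B7-2, the co-stimulatory ligand of CD28 and CTLA-4, best known on antigen-presenting cells and also found on activated T cells. It lies at chr16:36603869-36666081, minus strand. Its levels crossed over in the opposite sense to Ikzf2. In TN cells it was at 14.3 and 16.6 CPM in WT and 8.08 and 10.1 in mCre, and in MP cells at 8.12 and 7.08 in WT and 13 and 14.6 in mCre. WT libraries were higher in TN cells and mCre libraries in MP cells, without overlap. The genotype difference was -0.79 (adjusted p = 0.00318) in TN cells and 0.86 (adjusted p = 0.00132) in MP cells, and the interaction was 1.64 (SE 0.202, adjusted p = 0.00047), a 3.13-fold ratio of fold changes. MP against TN was -1.03 (adjusted p = 1.65e-05) in WT and 0.62 (adjusted p = 0.00204) in mCre.

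Antigen-presenting cells also express Cd86, so their marker lists stand beside it. Summed B cell markers were at 21.4 to 23.5 CPM in WT-TN, 18.8 to 23.7 in mCre-TN, 25.4 to 26.3 in WT-MP and 26.3 to 28.1 in mCre-MP. Summed dendritic cell markers were at 242 to 245, 284 to 296, 170.0 to 186 and 193 to 231 in that order, and macrophage and monocyte markers at 489 to 538, 445 to 511, 448 to 507 and 443 to 474. None of these lists had a called interaction in edgeR, DESeq2 or limma voom (7, 14 and 26 genes tested, with 0, 0 and 1 at unadjusted p under 0.05). Their median interactions were 0.44 for B cell, 0.18 for dendritic cell and 0.05 for macrophage and monocyte markers, all of the same sign as Cd86, with 5 of 7, 10 of 14 and 14 of 26 positive against 51.5% of all tested genes. Members of the dendritic cell list did not move together between subsets. Itgax had 43 unscaled counts in WT-TN and 71 in mCre-TN, against 1520 in WT-MP and 1310 in mCre-MP. Flt3 had between 33 and 49 in every group. The summed list is therefore not a measure of dendritic cells. Of the 26 macrophage and monocyte markers 4 fell and 0 rose in mCre in each subset (medians -1.12 in TN cells and -0.86 in MP cells). Of all tested genes, 1.92% fell and 1.55% rose in TN cells, and 1.97% fell and 2.08% rose in MP cells. Csf1r, the receptor for the macrophage growth factor, went from 207 counts in WT to 122 in mCre among TN cells and from 329 to 134 among MP cells. These counts are not scaled to library size. Total counts ran from 13479586 (WT-TN replicate 1) to 30057658 (mCre-TN replicate 1), so the sizes of the falls cannot be compared between subsets. The B cell marker Ms4a1 was low in every group, with between 9 and 21 counts over the 2 libraries. Their part in the result was not tested. The other B7 and CD28 family members Cd80, Cd28 and Icos, looked up after the values were seen, had interactions of -0.39, -0.14 and 0.15.

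Il12rb2, the signalling chain of the IL-12 receptor, lies at chr6:67291318-67376188, minus strand, and was among the least abundant of the called genes. Its WT-TN libraries held 46 and 38 counts, 3.4 and 2.04 CPM, against 5.53 and 4.57 in mCre-TN. In MP cells it was at 10.3 and 9.71 in WT and 6.65 and 5.76 in mCre. mCre was higher in TN cells (0.94, adjusted p = 0.0242) and lower in MP cells (-0.69, adjusted p = 0.0391), with no overlap of libraries, and the interaction was -1.64 (SE 0.292, adjusted p = 0.0252). The subset difference narrowed from 1.91 (adjusted p = 9.15e-07) in WT to 0.28 (adjusted p = 0.299) in mCre. The Il12rb2 interaction lost its call when any of these libraries was left out, with the adjusted p in brackets: WT-TN replicate 2 (0.274), WT-MP replicate 1 (0.115), WT-MP replicate 2 (0.0705), mCre-TN replicate 1 (0.162) and mCre-MP replicate 2 (0.0982). It was also lost with limma voom (0.139) and without robust estimation (0.0956). Serbp1 overlaps Il12rb2 on the opposite strand, and its interaction was 0.02. In the same pathway, looked up after the values were seen, Il12rb1 had an interaction of -0.31 (adjusted p = 0.816), Il18rap -0.46, Il18r1 -0.03 and Stat4 -0.13.

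S100a6 encodes calcyclin, a small calcium-binding protein that rises with T cell memory. It lies at chr3:90612882-90624181, plus strand. It was low in TN cells, at 3.25 and 3.22 CPM in WT (44 and 60 counts) and 6.71 and 5.65 in mCre (205 and 110 counts), and high in MP cells, at 193 and 197 in WT and 169.5 and 167 in mCre. Among TN cells the mCre libraries were the higher, and among MP cells the lower, without overlap. The genotype difference was 0.95 (adjusted p = 0.000284) in TN cells and -0.21 (adjusted p = 0.0247) in MP cells, so most of the interaction of -1.16 (SE 0.141, adjusted p = 0.00047) came from the TN cells on this scale. The subset difference remained large in both genotypes, 5.91 (adjusted p = 6e-20) in WT and 4.74 (adjusted p = 1.29e-19) in mCre. With limma voom the adjusted p was 0.143. All 6 tested S100 family members, chosen after the values were seen, had a negative interaction, where 51.5% of all tested genes had a positive one. S100a4 had -1.26 (SE 0.388, adjusted p = 0.535), S100a1 -0.25 (SE 0.598), S100a10 -0.03 (SE 0.0891), S100a11 -0.14 and S100a13 -0.20.

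H2-Q6 and H2-Q7 are neighbouring genes of the Qa-2 group of nonclassical MHC class I molecules, at chr17:35424850-35430055, plus strand and chr17:35439155-35443773, plus strand. H2-Q6 was at 404 and 431 CPM in WT-TN and fell to 214 and 219 in mCre-TN, whereas in MP cells it was at 552 and 579 in WT and 674 and 570.0 in mCre. The mCre-TN libraries were the lowest of all 8, and the MP libraries of both genotypes overlapped. The drop in TN cells was 1.93-fold (log2 -0.95, adjusted p = 8.08e-07), the MP difference was 0.14 (adjusted p = 0.301), and the interaction was 1.09 (SE 0.0942, adjusted p = 3.74e-05). MP against TN grew from 0.44 (adjusted p = 9.04e-05) in WT to 1.52 (adjusted p = 4.51e-11) in mCre.

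H2-Q7 showed the same shape at a smaller size. It was at 524 and 553 CPM in WT-TN, 369 and 395 in mCre-TN, 557 and 602 in WT-MP and 636 and 594 in mCre-MP. The mCre-TN libraries were again the lowest and the MP libraries overlapped. It fell by 0.50 on the log2 scale in TN cells, its MP difference was 0.09 (adjusted p = 0.473), and its interaction was 0.58 (SE 0.0786, adjusted p = 0.0011). In WT cells MP and TN were close (0.11, adjusted p = 0.161), and in mCre cells MP was higher (0.69, adjusted p = 1.04e-08). The longest coding transcripts of the 2 genes are 89.2% identical over 1468 aligned bases, and how reads that match both were counted is not stated, so the values of each gene on its own are uncertain.

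The promoter windows of H2-Q6 and H2-Q7 are shown because the 2 genes moved together. They run from 250 bases before to 50 after the RefSeq start (GRCm38.p6, plus strand), at chr17:35424600-35424899 and chr17:35438905-35439204. Capitals mark GGGATTCCC, the core of the kappaB element known from MHC class I enhancers.
H2-Q6 promoter: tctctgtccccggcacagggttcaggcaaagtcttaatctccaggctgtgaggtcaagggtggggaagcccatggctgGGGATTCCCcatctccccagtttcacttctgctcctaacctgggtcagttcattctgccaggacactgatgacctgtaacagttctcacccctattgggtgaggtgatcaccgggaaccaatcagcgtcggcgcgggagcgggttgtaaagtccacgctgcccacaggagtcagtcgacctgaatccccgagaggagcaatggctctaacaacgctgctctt
H2-Q7 promoter: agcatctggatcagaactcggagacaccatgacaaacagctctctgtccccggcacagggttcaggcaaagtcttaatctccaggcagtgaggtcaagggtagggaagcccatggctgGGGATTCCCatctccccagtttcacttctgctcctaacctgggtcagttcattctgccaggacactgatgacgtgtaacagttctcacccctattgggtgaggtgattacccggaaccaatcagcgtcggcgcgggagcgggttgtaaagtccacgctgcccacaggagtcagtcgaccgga
The windows are 97.7% identical over 260 aligned bases. GGGATTCCC, searched on both strands, occurred in 116 of 32851 windows of this length (0.353%), among them those of H2-K1 and H2-D1. The H2-Q6 window was 84.8% identical to that of H2-K1 and 81.5% to that of H2-D1. Of the 16 called genes, 11 had a window in the table. An interferon regulatory factor site (AANNGAAA, both strands, 23.9% of all windows) was in 5 of the 11, H2-Q6, H2-Q7, S100a6, Hopx and Clec2i, and a T-box element (AGGTGTGA, both strands, 1.28%) in 0. These are matches of letters, not measured binding.

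Other MHC class I genes were looked up after these values were seen. Of 13 tested, these 2 included, 12 had a positive interaction, against 51.5% of all tested genes, and only H2-Q6 and H2-Q7 were called. The median of the 13 was 0.27, against 0.006 over all genes. Some of the 12 were imprecise, such as H2-Q1 at 0.89 (SE 0.897). H2-Q4, a further gene of the Qa-2 region, had 0.38 (SE 0.0824, adjusted p = 0.0926) and was called by DESeq2. The classical genes H2-K1 and H2-D1 had 0.28 (SE 0.0715, adjusted p = 0.298) and 0.27 (SE 0.0739, adjusted p = 0.327), and the light chain B2m had 0.08. H2-T24 rose in both subsets, by 0.64 in TN cells and 0.80 in MP cells, with an interaction of 0.16. Shared reads may link these values too.

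Traf1, a signalling adaptor of the TNF receptor family that acts in NF-kappaB activation and survival of CD8+ T cells, lies at chr2:34941750-34961772, minus strand. It was at 109 and 109 CPM in WT-TN, 65.5 and 60.8 in mCre-TN, 188 and 179.8 in WT-MP and 187 and 161 in mCre-MP. mCre-TN was the lowest group, and the MP libraries overlapped between genotypes. It fell by 0.79 on the log2 scale in TN cells, its MP difference was -0.09 (adjusted p = 0.54), and its interaction was 0.70 (SE 0.092, adjusted p = 0.000992). MP exceeded TN by 0.75 (adjusted p = 3.27e-08) in WT and by 1.46 (adjusted p = 3.32e-12) in mCre. Relatives looked up after the values were seen had interactions of 0.11 (Traf2), -0.02 (Traf3) and, for the TRAF partner Birc3, 0.31 (adjusted p = 0.191).

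Hopx encodes a small homeodomain protein that is high in effector and memory T cells, at chr5:77086988-77115121, minus strand. In TN cells it was at 26.5 and 25.6 CPM in WT and 17.6 and 18.6 in mCre, and in MP cells at 155 and 153 in WT and 147 and 153 in mCre. The TN libraries did not overlap between genotypes, and the MP libraries lay close together, also without overlap. Hopx fell by 0.53 on the log2 scale in TN cells, its MP difference was -0.04 (adjusted p = 0.752), and its interaction was 0.49 (SE 0.0864, adjusted p = 0.0252). Unlike S100a6, which is also high in MP cells, Hopx had a subset difference that was larger in mCre (3.06, adjusted p = 5.51e-18) than in WT (2.57, adjusted p = 8.89e-17). Leaving out single libraries took the Hopx call away in these cases (adjusted p in brackets): WT-TN replicate 1 (0.0646), WT-TN replicate 2 (0.0772), WT-MP replicate 1 (0.0976), WT-MP replicate 2 (0.121), mCre-TN replicate 1 (0.175) and mCre-MP replicate 2 (0.114); limma voom (0.202) and the fit without robust estimation (0.0677) did so too. Hopxos overlaps Hopx on the opposite strand.

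Hectd2, Atf6 and Edaradd had the mirror image of this shape: they rose in TN cells of the mCre genotype, with no called difference in MP cells. Hectd2, a HECT-type ubiquitin ligase at chr19:36554639-36621135, plus strand, was at 16.9 and 16.9 CPM in WT-TN, 28.7 and 29.2 in mCre-TN, 27 and 24.2 in WT-MP and 23 and 20.2 in mCre-MP. WT-TN was the lowest group and mCre-TN the highest, with no overlap in either subset. Its genotype difference was 0.77 (adjusted p = 0.000135) in TN cells and -0.25 (adjusted p = 0.154) in MP cells, and its interaction was -1.03 (SE 0.136, adjusted p = 0.000992). MP exceeded TN in WT (0.60, adjusted p = 0.000101) and was below it in mCre (-0.43, adjusted p = 0.00135). Hectd2os overlaps it on the opposite strand. Hectd3 and Hectd4, looked up after the values were seen, had interactions of 0.01 and -0.07.

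Atf6 encodes a membrane-bound transcription factor that senses unfolded protein in the endoplasmic reticulum, at chr1:170704674-170867771, minus strand. It was at 27.3 and 23.9 CPM in WT-TN, 41.2 and 44.1 in mCre-TN, 56.4 and 52.3 in WT-MP and 60.2 and 60.9 in mCre-MP, so that mCre libraries were above WT in both subsets. The genotype difference was 0.74 (adjusted p = 3.16e-05) in TN cells and 0.15 (adjusted p = 0.271) in MP cells, and the interaction was -0.59 (SE 0.108, adjusted p = 0.03). The subset difference was 1.10 (adjusted p = 2.13e-09) in WT and 0.51 (adjusted p = 1.71e-05) in mCre. The Atf6 interaction lost its call when any of these libraries was left out, with the adjusted p in brackets: WT-TN replicate 2 (0.28), WT-MP replicate 1 (0.158), mCre-TN replicate 2 (0.118), mCre-MP replicate 1 (0.0557) and mCre-MP replicate 2 (0.0887). It was also lost with limma voom (0.143) and without robust estimation (0.0956). Among other sensors and targets of the same stress response, looked up after the values were seen, Atf6b had an interaction of -0.05, Ern1 0.12, Eif2ak3 0.00 and Hspa5 0.10.

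Edaradd, the adaptor of the ectodysplasin receptor, lies at chr13:12472632-12520438, minus strand and is the called gene with the miR-29 heptamer printed above. It was at 3.62 and 3.49 CPM in WT-TN (49 and 65 counts), 9.06 and 6.52 in mCre-TN, 24.5 and 23.5 in WT-MP and 22.4 and 17.3 in mCre-MP. mCre was higher in TN cells and lower in MP cells without overlap, though the 2 libraries of each mCre group lay further apart than those of each WT group. The genotype difference was 1.16 (adjusted p = 0.0023) in TN cells and -0.28 (adjusted p = 0.299) in MP cells, and the interaction was -1.44 (SE 0.238, adjusted p = 0.02). MP against TN was 2.76 (adjusted p = 1.11e-09) in WT and 1.32 (adjusted p = 1.91e-06) in mCre. Leaving out single libraries took the Edaradd call away in these cases (adjusted p in brackets): WT-TN replicate 1 (0.123), WT-TN replicate 2 (0.29), WT-MP replicate 1 (0.0976), WT-MP replicate 2 (0.069) and mCre-TN replicate 1 (0.106); limma voom (0.205) and the fit without robust estimation (0.0757) did so too.

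A further 4 genes had a called genotype difference in MP cells alone. Anxa2, an annexin that binds membrane phospholipids and the S100 protein S100a10 and that rises with T cell memory, lies at chr9:69453620-69491795, plus strand. In TN cells it was at 21.7 and 20.3 CPM in WT and 21.1 and 18.5 in mCre, and in MP cells at 80.1 and 92.6 in WT and 51.4 and 52.2 in mCre. The genotypes overlapped in TN cells and were apart in MP cells, where mCre was lower. Anxa2 fell by 0.74 on the log2 scale in MP cells, its TN difference was -0.07 (adjusted p = 0.782), and its interaction was -0.67 (SE 0.123, adjusted p = 0.03). MP exceeded TN by 2.04 (adjusted p = 7.5e-13) in WT and by 1.38 (adjusted p = 2.04e-10) in mCre. The Anxa2 interaction lost its call when any of these libraries was left out, with the adjusted p in brackets: WT-TN replicate 1 (0.0626), WT-TN replicate 2 (0.28), WT-MP replicate 2 (0.164), mCre-TN replicate 1 (0.269), mCre-MP replicate 1 (0.0517) and mCre-MP replicate 2 (0.0819). It was also lost with limma voom (0.227) and without robust estimation (0.106). Gm16144 overlaps it on the opposite strand. Anxa5 and Anxa6, looked up after the values were seen, had interactions of 0.13 and 0.09.

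Itm2a, a membrane protein that is induced during T cell selection and activation, lies at chrX:107397099-107403376, minus strand. It was at 23.4 and 23.7 CPM in WT-TN, 25.5 and 29.6 in mCre-TN, 60.5 and 55.4 in WT-MP and 43.5 and 40.9 in mCre-MP. The mCre libraries were lower in MP cells and higher in TN cells, without overlap, but only the MP difference passed the test (-0.46, adjusted p = 0.00164, against 0.21, adjusted p = 0.224, in TN cells). Its interaction was -0.67 (SE 0.119, adjusted p = 0.0252), and MP exceeded TN by 1.30 (adjusted p = 5.26e-10) in WT and by 0.62 (adjusted p = 7.5e-06) in mCre. Leaving out single libraries took the Itm2a call away in these cases (adjusted p in brackets): WT-TN replicate 1 (0.0657), WT-TN replicate 2 (0.143), WT-MP replicate 1 (0.137), mCre-TN replicate 2 (0.1) and mCre-MP replicate 2 (0.0982); limma voom (0.143) and the fit without robust estimation (0.0905) did so too. Its relatives Itm2b and Itm2c, looked up after the values were seen, had interactions of 0.03 and 0.12.

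Gpr55, a receptor for lysophospholipids and cannabinoids, had the largest interaction and the lowest counts. It lies at chr1:85938318-85961007, minus strand. The TN libraries held 26 and 18 reads (WT) and 16 and 14 (mCre), and the MP libraries 91 and 78 (WT) and 151 and 212 (mCre). As levels these were 1.92 and 0.967 CPM in WT-TN, 0.524 and 0.719 in mCre-TN, 3.93 and 3.59 in WT-MP and 8.3 and 8.72 in mCre-MP. The mCre-MP libraries stood above all others, and the genotypes did not overlap in either subset. Gpr55 rose in MP cells (1.18, adjusted p = 0.0045), its TN difference was -1.19 (adjusted p = 0.0895), and its interaction was 2.37 (SE 0.438, adjusted p = 0.03). MP exceeded TN by 1.43 (adjusted p = 0.000774) in WT and by 3.80 (adjusted p = 4.02e-09) in mCre. The Gpr55 interaction lost its call when any of these libraries was left out, with the adjusted p in brackets: WT-TN replicate 1 (0.283), WT-MP replicate 1 (0.0976), WT-MP replicate 2 (0.121), mCre-TN replicate 1 (0.233), mCre-TN replicate 2 (0.0598) and mCre-MP replicate 2 (0.0982). It was also lost with limma voom (0.215) and without robust estimation (0.106). 4933407L21Rik overlaps it on the opposite strand.

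Clec2i, a C-type lectin-related ligand of NK receptors of the Nkrp1 family, lies at chr6:128887588-128898167, plus strand. It was at 91.1 and 86 CPM in WT-TN, 94.1 and 98.2 in mCre-TN, 85.2 and 85.3 in WT-MP and 60.7 and 71.3 in mCre-MP. The mCre-MP libraries were the lowest of all 8. The genotype difference was -0.36 (adjusted p = 0.00272) in MP cells and 0.12 (adjusted p = 0.371) in TN cells, and the interaction was -0.48 (SE 0.0928, adjusted p = 0.0448). MP was close to TN in WT (-0.05, adjusted p = 0.583) and below it in mCre (-0.54, adjusted p = 2.64e-06). Leaving out single libraries took the Clec2i call away in these cases (adjusted p in brackets): WT-TN replicate 1 (0.0645), WT-TN replicate 2 (0.28), WT-MP replicate 1 (0.15), WT-MP replicate 2 (0.164), mCre-TN replicate 1 (0.0717), mCre-TN replicate 2 (0.138) and mCre-MP replicate 1 (0.114); limma voom (0.202) and the fit without robust estimation (0.162) did so too. BC035044 overlaps it on the opposite strand, with an interaction of -0.12, and the relative Clec2d, looked up after the values were seen, had -0.22 (SE 0.0936, adjusted p = 0.812).

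Fam135b, a gene of little-studied function at chr15:71431609-71727838, minus strand, was the only called gene whose genotype difference was called in both subsets with the same sign. It was at 6.5 and 7.68 CPM in WT-TN, 19.2 and 24.6 in mCre-TN, 8.68 and 9.84 in WT-MP and 14.4 and 12.5 in mCre-MP. mCre was above WT in both subsets without overlap, by 3.04-fold in TN cells (log2 1.61, adjusted p = 2.79e-06) and 1.45-fold in MP cells (log2 0.53, adjusted p = 0.0415). The interaction was -1.07 (SE 0.208, adjusted p = 0.0473), the adjusted p nearest to the threshold. MP against TN was 0.37 (adjusted p = 0.0859) in WT and -0.70 (adjusted p = 0.000408) in mCre. The Fam135b interaction lost its call when any of these libraries was left out, with the adjusted p in brackets: WT-TN replicate 1 (0.201), WT-TN replicate 2 (0.143), WT-MP replicate 1 (0.0976), WT-MP replicate 2 (0.234), mCre-TN replicate 2 (0.178) and mCre-MP replicate 2 (0.198). It was also lost with limma voom (0.365) and without robust estimation (0.163).

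Read as a change in the subset difference, the 16 genes fell into 3 classes by the sign and size of their estimates. MP and TN differed more in mCre than in WT for 6 genes (H2-Q6, H2-Q7, Traf1, Hopx, Gpr55 and Clec2i) and less for 6 (S100a6, Edaradd, Itm2a, Il12rb2, Atf6 and Anxa2). The estimates had opposite signs in the 2 genotypes for 4 (Ikzf2, Cd86, Hectd2 and Fam135b). Subset differences as such were common, at 3908 genes in WT (31.7%) and 4000 in mCre (32.5%). A subset difference that was called in both genotypes with opposite signs was found for 4 genes: Ikzf2, Cd86, Hectd2 and Camk2a. Camk2a, a calcium-dependent kinase gene, had 1.13 (adjusted p = 0.0127) in WT and -0.86 (adjusted p = 0.0321) in mCre, and its interaction of -1.99 (SE 0.444, adjusted p = 0.117) was not called.

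**Figure D3:**
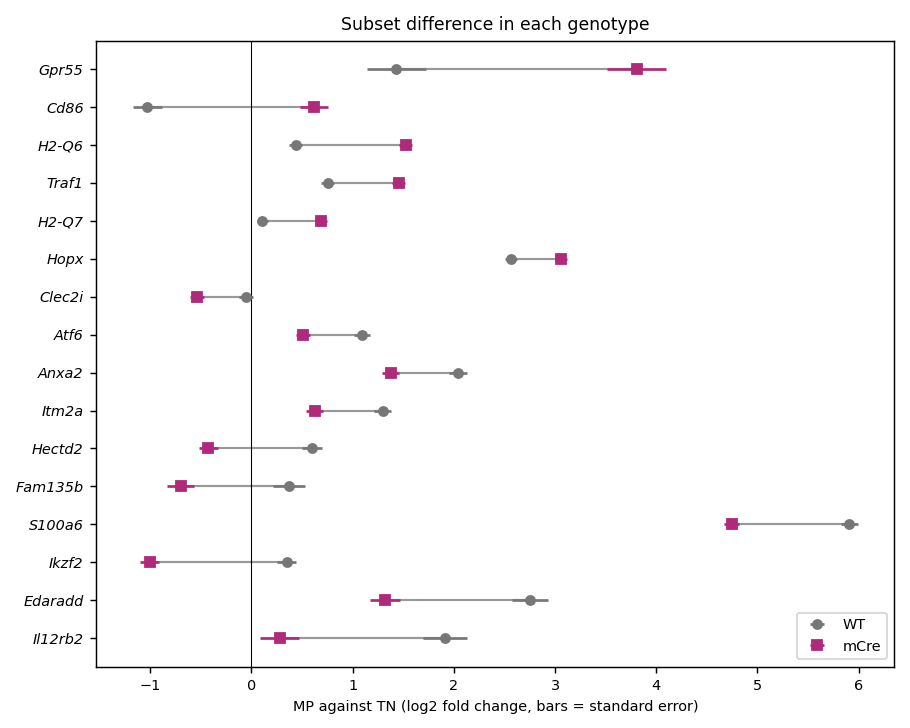
Log2 fold change of MP against TN (x axis) in WT (grey circles) and mCre (purple squares) for the 16 genes, with bars of 1 standard error; the distance between the 2 marks is the interaction. Ikzf2, Cd86, Hectd2 and Fam135b cross 0, and Gpr55 has the widest gap, from 1.43 in WT to 3.80 in mCre.

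Interferon genes, which rise when type I or II interferon signals through STAT factors, were in part higher in mCre in both subsets. Of 61 tested genes of the interferon response list, 21 rose and 1 fell in TN cells (median log2 0.47), and 31 rose and 0 fell in MP cells (median 0.55), against medians of -0.001 and 0 over all genes, of which 1.55% rose and 1.92% fell in TN cells and 2.08% and 1.97% in MP cells. Rtp4, a chaperone of receptor proteins, rose by 1.15 in TN cells and 1.11 in MP cells, and its interaction was -0.04. Isg20, an exonuclease that degrades viral RNA, rose by 0.69 in TN cells and 1.29 in MP cells, with an interaction of 0.60 (SE 0.217, adjusted p = 0.7). No interaction in the list was called by edgeR or limma voom and 1 by DESeq2 (Epsti1), with 3 positive and 1 negative at unadjusted p under 0.05 and a median of 0.11. Of 28 tested interferon-inducible GTPase and Ifi200 genes, 5 rose and 1 fell in TN cells and 9 rose and 0 fell in MP cells (both medians 0.49). The one that fell was Aim2, a sensor of cytosolic DNA, at -0.59 (adjusted p = 0.00114) in TN cells and 0.05 (adjusted p = 0.849) in MP cells, with an interaction of 0.64 (SE 0.13, adjusted p = 0.0845). No interaction in this second list was called by edgeR or limma voom, and 1 was called by DESeq2, that of Aim2 (adjusted p = 0.0319). In edgeR 3 were positive and 0 negative at unadjusted p under 0.05, with a median of 0.10. The genes given as examples in the lists were chosen after their values were seen.

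The memory-phenotype list holds genes that rise in antigen-experienced or innate-like CD8+ T cells. Its 52 tested members had 3 called interactions, all negative (S100a6, Il12rb2 and Anxa2), where 0.13% of all genes had a call in either direction, and 14 negative and 4 positive at unadjusted p under 0.05, where 2.89% and 3.03% of all genes were. In TN cells 5 rose and 2 fell (1.55% and 1.92% of all genes), and in MP cells 2 rose and 13 fell (2.08% and 1.97% of all genes). The medians were 0.00 in TN cells, -0.17 in MP cells and -0.12 for the interaction. In TN cells 12 of the 52 had fewer than 40 counts over the 4 libraries. Naive T cell genes had 0 called interactions in 42 by edgeR and limma voom and 1 by DESeq2, with 8 positive and 0 negative at unadjusted p under 0.05 and a median of 0.11. An example is Als2cl, a Rab5 regulator, at -1.67 (adjusted p = 0.000109) in TN cells and -0.91 (adjusted p = 0.0104) in MP cells, with an interaction of 0.76 (SE 0.181, adjusted p = 0.393) in edgeR. DESeq2 called the interaction of Als2cl (adjusted p = 0.00342).

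NK-type receptors, which MP cells carry and TN cells mostly lack, were tested in 26 members. In TN cells 20 of the 26 had fewer than 40 counts over the 4 libraries and 5 had 0, so most passed the filter on low counts through their level in MP cells, and the genotype difference in TN cells and the interaction say little for them. In MP cells 12 fell and 0 rose in mCre, where 1.97% and 2.08% of all genes did, among them Klra7, an inhibitory Ly49 receptor, by 3.11 and the activating receptor Klrk1 (NKG2D) by 0.49 on the log2 scale. The interaction was not called for any member in edgeR, DESeq2 or limma voom (2 positive and 3 negative at unadjusted p under 0.05). The interaction of Klra7 was 0.41 (SE 0.485, adjusted p = 0.981), while that of Klrk1 was -0.25 (SE 0.129, adjusted p = 0.862). The Klra genes are near-identical copies in part, so single members are uncertain.

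Over all tested genes, 0.13% had a called interaction, and 3.03% had a positive and 2.89% a negative one at unadjusted p under 0.05. These shares stand beside the interaction counts of every list. Among transcription factors of T cells, 2 of 45 tested had a called interaction, Ikzf2 and Hopx, with 3 positive and 7 negative at unadjusted p under 0.05 (median 0.03). Co-stimulatory and co-inhibitory receptors had 1 of 36 (Cd86), with 7 positive and 2 negative (median 0.12), T cell receptor signalling 1 of 50 (Traf1), with 5 and 0 (median 0.04), and cytokine receptors 1 of 38 (Il12rb2), with 5 and 5 (median -0.02). Of 27 tested genes of the amino-acid response and tRNA synthetases, 9 rose in TN cells and 9 in MP cells (1.55% and 2.08% of all genes), not all of them the same, with medians of 0.15 in TN cells and 0.22 in MP cells. Asns, asparagine synthetase, rose by 1.28 in TN cells and 1.07 in MP cells, with an interaction of -0.21 (SE 0.219, adjusted p = 0.978). That list had 0 called interactions by edgeR, DESeq2 and limma voom, with 3 positive and 2 negative at unadjusted p under 0.05. Of 77 ribosomal protein genes, 21 fell in TN cells and 5 in MP cells (1.92% and 1.97% of all genes; medians -0.15 and -0.09). A positive interaction was found in 61 of the 77 (51.5% of all genes; median 0.07), with 0 called by any of the 3 tools and 3 positive and 1 negative at unadjusted p under 0.05.

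Genes of DNA methylation and known miR-29 targets gave no call in either subset. Of 45 tested, 0 were called in TN cells, 0 in MP cells and 0 for the interaction in edgeR, DESeq2 and limma voom, with 1 positive and 2 negative interactions at unadjusted p under 0.05. Their medians were 0.01 in TN cells, -0.05 in MP cells and -0.04 for the interaction. The microRNA pathway list (15 tested) likewise had 0 called interactions by these tools, and 0 at unadjusted p under 0.05. Cytotoxic effectors and cytokines had 0 called interactions in 25 by edgeR and limma voom and 1 by DESeq2, with 2 positive and 4 negative at unadjusted p under 0.05 (median 0.02). Chemokine receptors and homing genes (29 tested), cell cycle genes (46) and mitochondrially encoded genes (8) had 0 by all 3 tools, with 3 and 3, 2 and 1, and 0 and 3 at unadjusted p under 0.05 and medians of 0.03, -0.02 and -0.15. In all, 6 of the 33 lists held a called interaction in edgeR, 11 in DESeq2 and 5 in limma voom.

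**Figure D4:**
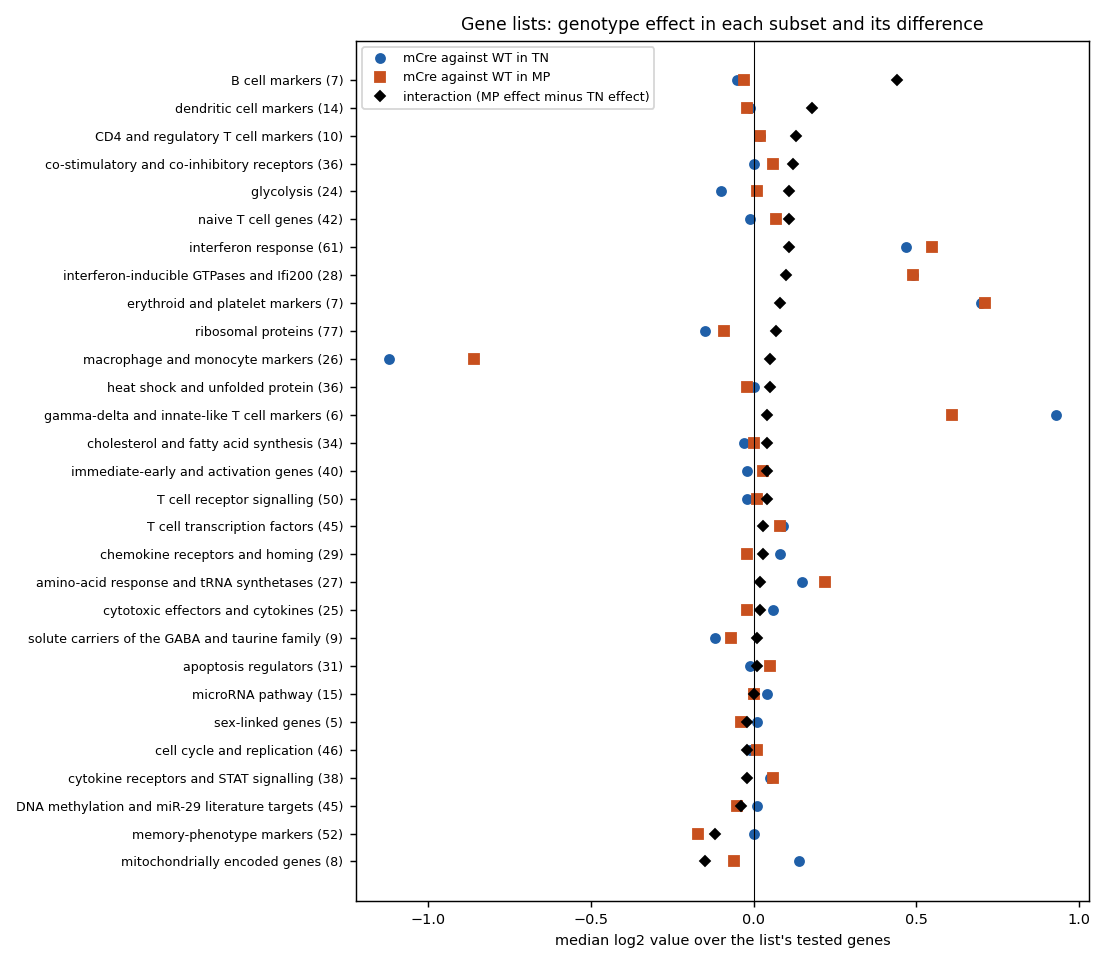
Median log2 value over the tested genes of each list (number tested in brackets) for mCre against WT in TN cells (circles), in MP cells (squares) and for the interaction (diamonds). The interferon list sits near 0.5 in both subsets with an interaction near 0.1, and the memory-phenotype list at 0.00 in TN cells and -0.17 in MP cells; lists with fewer than 5 tested genes or with a member at 0 counts in all TN libraries are not drawn.

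The labelled cell types and the marks of other cells were checked in the same libraries. Total counts ran from 13479586 to 30057658 per library, and 14834 to 15722 genes were detected. Cd8a, Cd8b1 and Cd3e were abundant in all groups, and Cd4 had between 3 and 10 counts per group. The sort markers had interactions of 0.14 for Cd44, -0.07 for Il2rb, -0.01 for Cd8a and 0.06 for Cd8b1, with 0 of these 4 called in edgeR, DESeq2 or limma voom and 0 at unadjusted p under 0.05. Cd44 was higher in MP than in TN cells by 3.27 on the log2 scale in WT and 3.41 in mCre. Among NK and innate lymphoid markers, the defining gene Ncr1 had 0 counts in both TN groups, 20 in WT-MP and 18 in mCre-MP.

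How often a call held differed between genes. Ikzf2, H2-Q6, Cd86, Hectd2, Traf1 and H2-Q7 were called under every one of 18 alternatives, with highest adjusted p of 0.0015, 0.00874, 0.0111, 0.0111, 0.0268 and 0.0257. S100a6 was called under 17. The other 9 lost the call under 7 to 9 alternatives each. None of the 287 values of a gene under an alternative had the opposite sign, and each of the 16 genes kept its sign in all 16 ways of taking 1 library per group and on the linear CPM scale. The genes were called on these same 8 libraries, so a kept sign is no separate support. Genes without a call also kept 1 sign in all 16 ways, among them Anxa6 (interaction 0.09, adjusted p = 0.953) and Mbtps1 (0.05, adjusted p = 0.988).

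**Figure D5:**
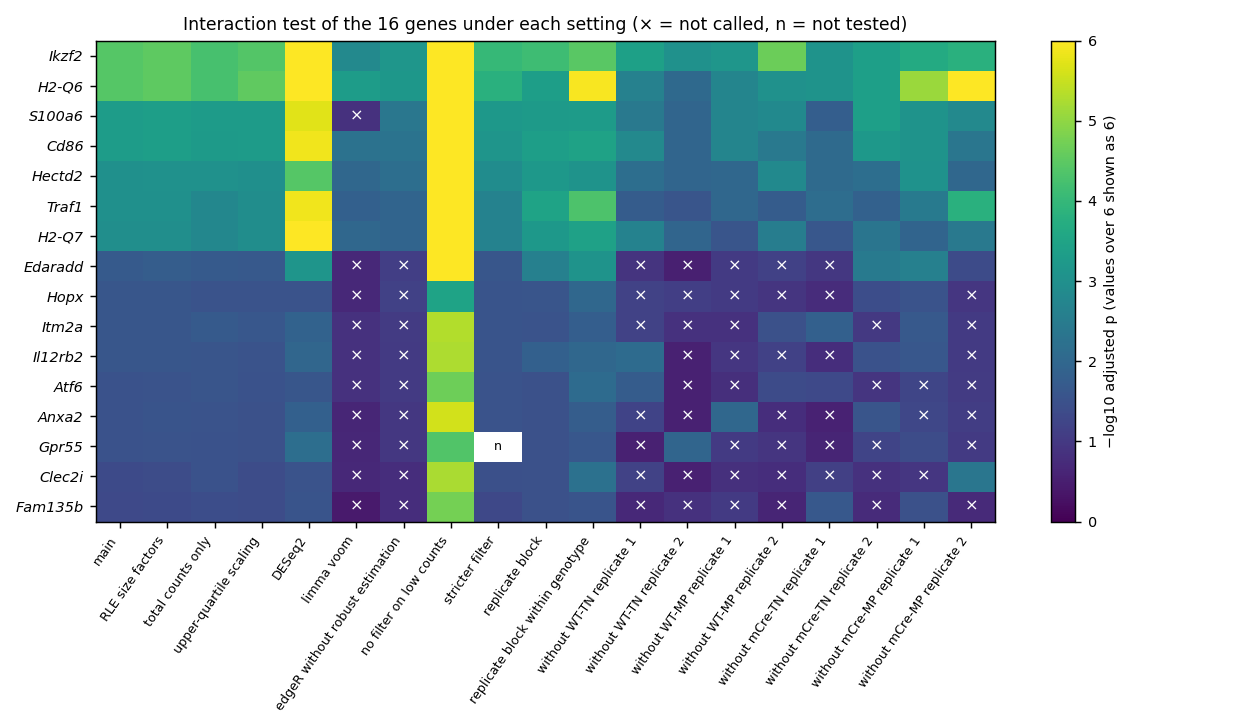
Adjusted p of the interaction as −log10 (colour, values over 6 shown as 6) for the 16 genes (rows) under the fit as reported and 18 alternatives (columns); a cross marks a value not called and n a gene not tested. The upper 7 genes hold 1 cross, with limma voom, and crosses in the lower 9 gather under limma voom, the fit without robust estimation and the settings that leave out a library.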

How the data were processed

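The table that the authors deposited holds the raw read count of each gene symbol in the 8 libraries. Per the submitters' processing notes, Trim Galore, HISAT2 and featureCounts were used with the build mm10; their versions, the annotation, the strand setting and the handling of reads with several matches are not given in these sources. Libraries came from a strand-preserving kit, per the labels' protocols. The table had 29426 symbols and 0 lines naming no gene, and total counts ran from 13479586 to 30057658.

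Counts were tested in edgeR 4.0.16 (R 4.3.3) by quasi-likelihood, after TMM scaling and with robust dispersion; 12313 genes passed filterByExpr. The 8 libraries shared one fit with a mean per group, and the interaction was the contrast (mCre-MP minus WT-MP) minus (mCre-TN minus WT-TN). Tests were two-sided, and p-values were Benjamini-Hochberg adjusted over all genes tested; the threshold for a call was 0.05. Levels (CPM) are counts scaled to the TMM-adjusted library size. Levels are not compared between genes. Each group has 2 libraries. Nothing in the labels says that these came from separate animals, so p-values measure the spread between these libraries, which may be technical.

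The rule for named genes took the 12 largest interactions in each direction among called genes with a mean log2 CPM of at least 3 and one sign in all 16 library combinations, up to 3 called members per gene list, the sort markers, and the 2 called genes with the largest sum of opposite genotype changes; this covered all 16 called genes. The comparison and the 33 gene lists were chosen with earlier results of these data known. Alternatives were other scalings, DESeq2 1.42.0, limma voom (limma 3.58.1), filters, a replicate block and leaving out each library. Coordinates and 3′ UTRs came from GENCODE M21 on GRCm38, which holds all 12313 tested symbols, and microRNAs and promoters from RefSeq (GRCm38.p6). The procedure was tested on simulated counts in which each gene had the same mean in all groups, apart from known interactions in mCre-MP. Genes with a large subset difference, such as S100a6, or low in TN cells alone, such as Gpr55, were not covered. Some genes that were measured are left out of the text.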

Additional observations from a re-analysis of the deposited data

Results flagged for a closer look

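For 16 genes the test of the difference itself found that mCre against WT was not the same in TN and MP cells (edgeR interaction, adjusted p under 0.05, 2 libraries per group). In brackets stand the interaction on the log2 scale and the number of alternatives that kept the call. The difference was further upward in MP cells for H2-Q6 (1.09, 18 of 18), H2-Q7 (0.58, 18 of 18), Traf1 (0.70, 18 of 18), Hopx (0.49, 10 of 18), Cd86 (1.64, 18 of 18) and Gpr55 (2.37, 9 of 17). It was further upward in TN cells for Ikzf2 (-1.35, 18 of 18), S100a6 (-1.16, 17 of 18), Anxa2 (-0.67, 10 of 18), Il12rb2 (-1.64, 11 of 18), Itm2a (-0.67, 11 of 18), Edaradd (-1.44, 11 of 18), Atf6 (-0.59, 11 of 18), Hectd2 (-1.03, 18 of 18), Clec2i (-0.48, 9 of 18) and Fam135b (-1.07, 10 of 18).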

How the results depend on the processing

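The fit as reported called 6 positive and 10 negative interactions. The positive count was 13 with DESeq2, 44 without a filter on low counts, 10 at an adjusted p under 0.10, 3 with an absolute log2 interaction of at least 1, and 4 to 19 when 1 library was left out. The negative count was 3 with limma voom, 4 without robust estimation, 37 without the filter, 16 at the looser threshold, 6 with the log2 minimum, and 3 to 10 when 1 library was left out. RLE, total-count and upper-quartile scaling gave 6 and 10. A replicate block gave 7 positive and 11 negative calls, and a block within genotype 13 and 15; both kept all 16 genes. Same-numbered libraries deviated together only weakly (r across genes, which are not independent, of 0.109 between WT-TN and WT-MP, 0.077 between mCre-TN and mCre-MP, and -0.045 to -0.014 in the other pairs). The positive values are those of the pairs within a genotype. The fit as reported treated the libraries as unpaired, and whether same-numbered ones share an animal cannot be told from these values. Of the 16 genes, DESeq2 kept 16, limma voom 6, the fit without robust estimation 7, and leaving out 1 library 8 to 13. Genes were gained too, and those named here were chosen after their values were seen. Cd163l1 was called by DESeq2 (log2 -2.31, adjusted p = 0.000736), limma voom (0.0056) and the fit without robust estimation (0.000713), against 0.371 as reported. Art2b was called by DESeq2 (log2 0.83, adjusted p = 0.000897), with the replicate block (0.000461) and with the block within genotype (0.000381), against 0.357 as reported. Id3 was called under the same settings (0.044, 0.0266 and 0.008), against 0.0584 as reported. Of 287 values of a gene under an alternative, 217 kept the call, 70 lost it and 0 reversed; the cause was not tested. Where a group was left with 1 library, that library was assumed to vary like the other groups. Gpr55 and Il12rb2 had low counts in TN cells, and Gpr55 was not tested under the stricter filter.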

Other observations

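A further 10 genes had an interaction at an adjusted p between 0.05 and 0.10 in edgeR's test. Id3, an inhibitor of E proteins that preserves naive and long-lived memory cells, had an interaction of -0.56 (adjusted p = 0.0584). It was at 46.3 and 42.2 CPM in WT-TN, 56.8 and 48.4 in mCre-TN, 65.7 and 66.6 in WT-MP and 56.6 and 51.2 in mCre-MP, so mCre libraries were the higher in TN cells and the lower in MP cells, as for Ikzf2. MP against TN was 0.59 (adjusted p = 1.13e-05) in WT and 0.03 (adjusted p = 0.839) in mCre. The chemokine Ccl5 had -0.64 (adjusted p = 0.0926), the cystatin Cst7 -0.37 (adjusted p = 0.0766) and the receptor Cd160 -0.54 (adjusted p = 0.0842). Cd160 was at 26.7 and 24.6 CPM in WT-TN, 28.6 and 26.2 in mCre-TN, 70.2 and 65.3 in WT-MP and 47.6 and 52.7 in mCre-MP, and its genotype difference was -0.43 (adjusted p = 0.00164) in MP cells and 0.11 (adjusted p = 0.577) in TN cells.

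The remaining genes in that range were Itpripl2 at -0.92 (adjusted p = 0.0767), Syde1 at -1.10 (adjusted p = 0.0926), Arhgap29 at 1.35 (adjusted p = 0.0926), H2-Q4 at 0.38 (adjusted p = 0.0926), Aim2 at 0.64 (adjusted p = 0.0845) and 2010111I01Rik at 0.61 (adjusted p = 0.0766). Just inside the threshold were Clec2i (0.0448) and Fam135b (0.0473).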
